A study of Danio rerio and Oryzias latipes with 22 samples.

Results

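Medaka (*Oryzias latipes*) ventricles taken 3 days after cryoinjury were compared with uninjured medaka ventricles across all genes, blood cells included. Members were chosen by GEO's labels alone: 3 samples at 3 days post-injury (d.p.i.) and 4 uninjured samples, 7 of the 22 samples of the series. All medaka were wild-type adults of the CAB strain aged 6 to 18 months. The injured group had the apex of the ventricle frozen with a cooled copper probe, and the uninjured group had no such injury. A sham operation was not among the samples, so opening the chest and freezing the apex cannot be told apart. The study set medaka, which scars after cardiac injury, beside zebrafish (*Danio rerio*), which regenerates, with further samples at 14 d.p.i. in both species. Its zebrafish, used in the species comparison below, were of the wild-type Tübingen strain in the same age range. Atrium and outflow tract were cut away, the ventricle was squeezed in buffer to drive out blood, digested to single cells and sequenced on the 10x Genomics platform. The number of fish behind each sample is not given in the sources used here, so p-values measure the spread between samples.

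The teleost ventricle is a trabeculated muscle lined by endocardium and covered by epicardium, and its red cells and thrombocytes keep their nuclei, so that blood left in the chamber contributes RNA to single-cell libraries. Freezing kills muscle and vessels in the apex, and clotting, the arrival of neutrophils and macrophages and the laying down of provisional matrix are known to follow within days. Roles given below for genes are known from zebrafish and mammals.

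Barcodes with at least 200 genes and at most 40% mitochondrial unique molecular identifiers (UMIs) were kept, 23554 of the 31839 deposited for these samples (14462 uninjured and 9092 at 3 d.p.i.), against 80138 kept in the whole series. Total UMIs were 20254527 to 30251442 in the uninjured samples and 14132308 to 16550716 at 3 d.p.i. Pairs of these samples shared at most 7 barcode sequences. Mitochondrial UMIs made up 3.94 to 7.77% of the kept UMIs at 3 d.p.i. and were higher in every uninjured sample, at up to 19.9%. Barcodes with over 15% mitochondrial UMIs were 26.7 to 55.4% of kept barcodes in uninjured samples and 2.28 to 9.67% at 3 d.p.i. UMIs were summed per sample over kept barcodes without the mitochondrial row, and levels are given as CPM, UMIs scaled to a common library total after scaling by trimmed means (TMM). In such sums fewer cells of a type and less RNA per cell cannot be told apart. The defining markers of ventricular tissue were present in each uninjured sample: *myl7*, the atrial and ventricular regulatory light chain of zebrafish heart muscle, stood at 8738 to 41977 CPM, the endothelial receptor *kdrl* at 113 to 222 CPM and the leukocyte phosphatase *ptprc* at 77.4 to 113 CPM.

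Of 15478 genes tested, 2342 were higher and 2401 were lower at 3 d.p.i. (edgeR quasi-likelihood test, Benjamini-Hochberg adjusted p under 0.05), which is 15.1% and 15.5% of the genes tested. Changes of 4-fold or more were called for 577 higher and 916 lower genes. The median log2 fold change over all genes was -0.04. Cell cycle genes, endoplasmic reticulum chaperones, proteasome subunits, lysosomal genes and actin regulators had more higher than lower calls, and T cell genes and heart muscle genes more lower than higher calls. In 3390 of the 4743 called genes the mean of the 2 samples at 14 d.p.i. lay between the uninjured and 3 d.p.i. means. The called genes were picked for a gap between those means, which favours such a place, so the count does not measure recovery. Fewer genes were called without 3 d.p.i. replicate 2 (1505 higher, 1249 lower), and the lower count fell to 1416 without replicate 1 and to 1588 without replicate 3.

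**Figure D1:**
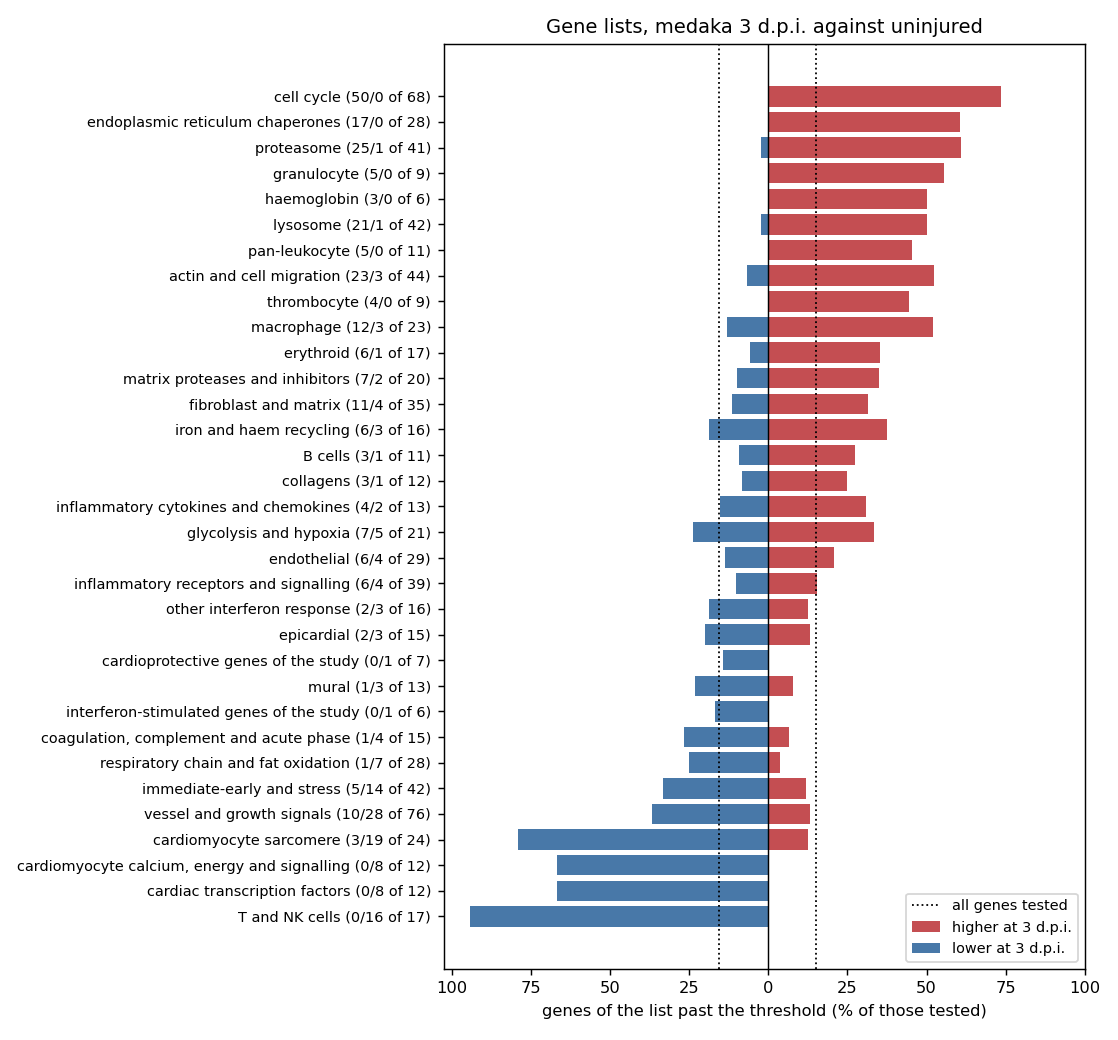
Share of each gene list past the threshold at 3 d.p.i. against uninjured (horizontal axis, percent of the list's genes tested; red, higher; blue, lower), for lists with at least 6 genes tested. Numbers after each name are higher/lower of tested, and dotted lines mark the 15.1% and 15.5% of all genes; T and NK cell genes reach furthest to the left with 16 of 17 lower, and cell cycle genes furthest to the right with 50 of 68 higher.

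Red cell barcodes took a larger share of each injured sample than of any uninjured one. A barcode was called haemoglobin-rich when at least 10% of its non-mitochondrial UMIs came from globin genes. Haemoglobin-rich barcodes were 42.2%, 12.5%, 21.3% and 3.26% of kept barcodes in uninjured replicates 1 to 4 and 55.8%, 80.3% and 68.7% in the samples at 3 d.p.i. The groups did not overlap, although uninjured replicate 1 and 3 d.p.i. replicate 1 lay near each other. The means were 19.8% ± 16.6 (SD, n = 4) and 68.3% ± 12.3 (SD, n = 3), a difference of 48.5 percentage points (exact permutation test, two-sided p = 0.0571, where the smallest possible is 0.0286). Globin genes held 12.3%, 3.22%, 5.60% and 1.51% of non-mitochondrial UMIs in uninjured samples and 15.1%, 35.5% and 26.7% at 3 d.p.i. (difference of means 20.1 percentage points, exact permutation p = 0.0286, the smallest possible). The 2 samples at 14 d.p.i. held 23.7% and 19.7% haemoglobin-rich barcodes.

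**Figure D2:**
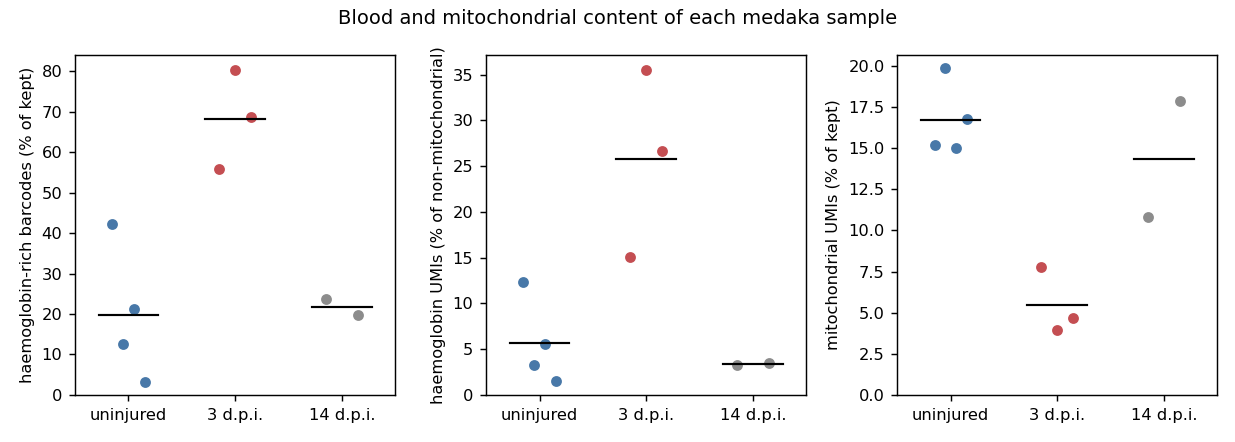
Share of kept barcodes that were haemoglobin-rich, share of non-mitochondrial UMIs in globin genes and share of kept UMIs that were mitochondrial (vertical axes, percent) in each medaka sample; points are samples and bars are means. All 3 samples at 3 d.p.i. lie above the uninjured samples in both blood measures (55.8 to 80.3% against 3.26 to 42.2% of barcodes) and below them in mitochondrial share.

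In absolute numbers the other barcodes were 2214, 2776, 2753 and 3827 per uninjured sample and 1217, 640 and 968 at 3 d.p.i. (11570 against 2825 in all), while haemoglobin-rich barcodes numbered 2892 against 6267. The class is a cut on a share rather than a sorted population, and 640 of the kept barcodes lay between 5% and 25%. Globin UMIs in the other barcodes were 0.0490 to 0.153% of their UMIs in uninjured samples and 0.173 to 0.384% at 3 d.p.i. Since the ventricles were squeezed to remove blood, blood left behind by that step and blood held in injured tissue cannot be told apart here. Several results below are therefore also given without haemoglobin-rich barcodes.

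Among single globin rows, the most abundant ones did not pass the test. The row *gb* (ENSORLG00000026120) stood at 80783, 21809, 28778 and 6271 CPM in uninjured samples and at 64924, 201194 and 153603 CPM at 3 d.p.i. (log2 fold change 2.02 ± 0.75 SE, adjusted p = 0.0674). A second abundant *gb* row (ENSORLG00000003046) behaved alike (2.23 ± 0.83, adjusted p = 0.0686). In both, uninjured replicate 1 overlapped the injured group, and without that replicate both passed (2.87, adjusted p = 0.0167, and 3.22, adjusted p = 0.0156). The 3 globin rows that rose were scarcer ones.

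The row *gb* ENSORLG00000005210 stood at 0.450, 0.513, 0.640 and 3.05 CPM in uninjured samples and at 498, 72.0 and 281 CPM at 3 d.p.i. (7.89 ± 0.91, adjusted p = 9.88e-04). The row ENSORLG00000025271 stood at 1.03, 2.71, 3.16 and 19.7 CPM and rose to 733, 118 and 559 CPM (6.13 ± 1.05, adjusted p = 0.00378). At 14 d.p.i. the 2 rows stood at 0.0917 to 0.264 CPM and at 0 to 0.0306 CPM. Within haemoglobin-rich barcodes alone the fold changes were 5.34 and 3.06 with adjusted p = 0.0896 and 0.292, and uninjured replicate 4 held 134 and 888 CPM there. For ENSORLG00000005210 that was above 3 d.p.i. replicate 2 (131 CPM), and for ENSORLG00000025271 too (215 CPM). *Gb-alpha1* rose 2.54 ± 0.46 (adjusted p = 0.00473), from 282 to 538 CPM in uninjured samples to 1149.6 to 4499.6 CPM, and it went to -1.48 (adjusted p = 0.124) without haemoglobin-rich barcodes. Of the 3 globin rows that rose, the row ENSORLG00000025271 still passed there (3.50, adjusted p = 0.0267) and 1 was too low to be tested. The *gb* rows share a name and may share reads, so single rows are uncertain.

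Of 17 erythroid genes tested, 6 rose and 1 fell, beside 15.1% and 15.5% of all genes tested. *cpox*, a haem synthesis enzyme, rose from 0.809 to 1.32 CPM to between 6.40 and 7.62 CPM (2.66 ± 0.27, adjusted p = 7.63e-04), and by 2.69 without haemoglobin-rich barcodes. *tfr1a*, the transferrin receptor of red cell precursors, stood at 101, 49.1, 68.6 and 33.3 CPM in uninjured samples and at 132, 262 and 145 CPM at 3 d.p.i. (1.51 ± 0.40, adjusted p = 0.0204), against 0.25 (adjusted p = 0.444) without haemoglobin-rich barcodes and 1.14 (adjusted p = 0.0893) without 3 d.p.i. replicate 2. *alas2*, the erythroid enzyme that starts haem synthesis, did not pass (38.1 to 412 CPM against 369 to 1028 CPM, 1.96 ± 0.71, adjusted p = 0.0627) in the whole sums, and was higher without haemoglobin-rich barcodes (1.57 to 7.96 CPM against 9.97 to 17.1 CPM, 1.68 ± 0.48, adjusted p = 0.0264). *sptb*, a spectrin of the red cell membrane, fell from 21.5 to 29.9 CPM to 9.96 to 13.2 CPM (-1.17 ± 0.20, adjusted p = 0.00351), but stood at 0.66 (adjusted p = 0.278) with a mitochondrial limit of 15% and at 0.61 (adjusted p = 0.0986) with each barcode thinned to at most 1000 UMIs. It gave -2.19 (adjusted p = 0.00107) without haemoglobin-rich barcodes and -0.53 (adjusted p = 0.224) within them. Without haemoglobin-rich barcodes 4 erythroid genes were higher. Within haemoglobin-rich barcodes 1 of the 17 was higher, with a list median of 0.08, and *cpox* gave 0.67 (adjusted p = 0.600). The count of erythroid genes that rose rested on single samples: 1 without 3 d.p.i. replicate 2, 2 without replicate 3, 3 without uninjured replicate 2 and 11 without uninjured replicate 1.

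Thrombocytes are the nucleated clotting cells of fish. Of 9 thrombocyte genes tested, 4 rose and the other 5 did not pass, where 15.1% of all genes tested rose. *gp1bb*, a subunit of the von Willebrand factor receptor, stood at 18.8, 6.09, 4.66 and 11.6 CPM in uninjured samples and at 67.1, 147 and 85.5 CPM at 3 d.p.i. (3.28 ± 0.48, adjusted p = 0.00218). The groups lay apart, and both samples at 14 d.p.i. were within the uninjured range. *gp9*, of the same receptor, rose from 2.42 to 8.94 CPM to 19.0 to 42.4 CPM (2.69 ± 0.52, adjusted p = 0.00571). Both also rose within haemoglobin-rich barcodes (2.24, adjusted p = 0.00241, and 1.48, adjusted p = 0.0125), and without those barcodes *gp1bb* rose by 2.58 (adjusted p = 0.0117) while *gp9* gave 1.23 (adjusted p = 0.0846). Without haemoglobin-rich barcodes 2 of the 9 genes passed. At 3 d.p.i. *gp9* stood at 53.9 to 91.1 CPM within haemoglobin-rich barcodes and at 2.41 to 4.44 CPM in the others. *gp1bb* stood at 148 to 280.2 CPM and 17.2 to 55.4 CPM, and *nfe2*, which also rose, at 130.1 to 151 CPM and 6.72 to 16.8 CPM. The remaining riser, *fermt3b*, was lower within them (2.36 to 10.2 CPM against 128 to 229 CPM). Which cells gave these rises was not tested.

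Most calls stayed when haemoglobin-rich barcodes were left out. Without them, 2477 genes were higher and 2434 lower of 15646 tested (15.8% and 15.6%). Of 4716 genes called in the whole sums and tested again, 4213 (89.3%) were called in the same direction. Both fits used the same samples and share the UMIs of the other barcodes, so part of this overlap is built in.

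**Figure D3:**
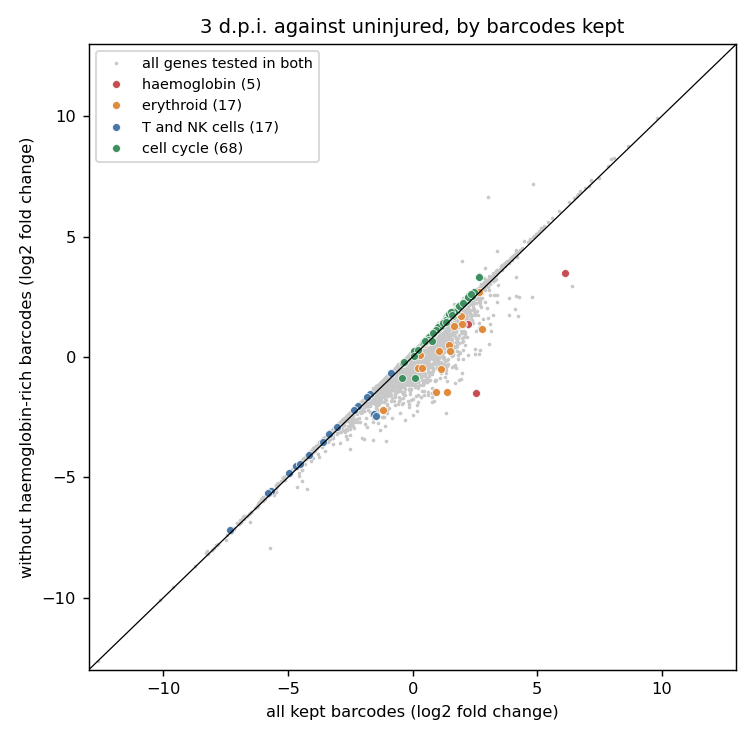
Log2 fold change of each gene at 3 d.p.i. against uninjured with all kept barcodes (horizontal axis) and without haemoglobin-rich barcodes (vertical axis); the line marks equal values. T and NK cell genes (blue) and cell cycle genes (green) lie near the line, while globin and erythroid genes (red, orange) mostly fall below it, *Gb-alpha1* at 2.54 against -1.48.

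Heart muscle genes were lower. Of 24 sarcomere genes tested, 19 fell and 3 rose, and their summed level went from 30485 to 108795 CPM in uninjured samples to 10315 to 16236 CPM at 3 d.p.i. *myl7* stood at 26783, 41977, 13628 and 8738 CPM in uninjured samples and at 4288, 3243 and 4763 CPM at 3 d.p.i. (-2.47 ± 0.63, adjusted p = 0.0173). *actc1a*, cardiac actin, fell from 7054, 8497, 3126 and 3701 CPM to 379.6, 408 and 1203 CPM (-3.08 ± 0.60, adjusted p = 0.00591). *tcap*, which caps titin at the Z disc, fell from 48.0, 105, 71.0 and 29.5 CPM to 6.01, 2.75 and 3.69 CPM (-3.92 ± 0.51, adjusted p = 0.00151). In these 3 genes the groups did not overlap.

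*tnnc1a*, cardiac troponin C, fell by 2.17 on the log2 scale (adjusted p = 0.00248), and *smyd1b*, a methyltransferase needed for myofibril assembly, by 2.26 (adjusted p = 0.00229). The paralog of *tnnc1a*, *tnnc1b*, moved the other way, from 1.48, 4.69, 1.35 and 9.57 CPM to 26.8, 44.5 and 45.9 CPM (3.19 ± 0.69, adjusted p = 0.00903). The other higher rows of the list were *TPM1* and *TPM4*, tropomyosins that smooth muscle and other cells also use. *vmhc*, the ventricular myosin heavy chain, was lower (-2.11 ± 0.62, adjusted p = 0.0303) although uninjured replicate 3, at 977 CPM, lay among the injured samples (687 to 1299.9 CPM).

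The muscle decrease depended on the mitochondrial limit. With a limit of 15% in place of 40%, 2 of the 24 sarcomere genes were lower, *vmhc* stood at 0.02 (adjusted p = 0.990), *tnnc1a* at -0.71 (adjusted p = 0.348), *smyd1b* at -1.25 (adjusted p = 0.0920), *actc1a* at -1.23 (adjusted p = 0.195) and *myl7* at -0.90 (adjusted p = 0.338). The study applied its own 15% limit only to cells that were not heart muscle, while here it was applied to every barcode. That limit removes 26.7 to 55.4% of uninjured and 2.28 to 9.67% of injured barcodes. Among barcodes that were not haemoglobin-rich it removes 32.0 to 51.7% and 9.69 to 18.0%. How many of the removed barcodes were muscle, and their part in the result, was not tested. Without 3 d.p.i. replicate 2, 12 sarcomere genes were lower. *myl7* missed the threshold without any one of the 3 injured samples (adjusted p = 0.0612, 0.0741 and 0.0501 without replicates 1, 2 and 3), and *vmhc* without any one of them or uninjured replicate 1 or 2 (adjusted p from 0.0555 to 0.113).

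One muscle gene had its own pattern. *myh6*, the atrial myosin heavy chain of zebrafish, stood at 156, 383, 4628 and 82.1 CPM in uninjured samples and at 0.259, 0.367 and 0 CPM at 3 d.p.i., from 139567 against 8 UMIs (-12.62 ± 2.14, adjusted p = 0.00367). The samples at 14 d.p.i. were also near 0, at 0.0528 and 0.0611 CPM. The high level in uninjured replicate 3 came with the lowest *vmhc* of the group. *kcnj5*, a potassium channel subunit of the mammalian atrium, followed it with 384 CPM in that replicate and 6.24 to 12.4 CPM in the other uninjured samples, against 0.275 to 0.813 CPM (-7.33 ± 1.86, adjusted p = 0.0172). Without uninjured replicate 3, *myh6* fell by 9.95 (adjusted p = 0.00169) and *kcnj5* by 4.00 (adjusted p = 0.00347), and *kcnj5* missed the threshold without any one injured sample (adjusted p = 0.0609, 0.0694 and 0.0563 without replicates 1, 2 and 3). The part of atrial tissue in these levels was not tested.

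Genes of calcium handling and cardiac transcription factors were mostly lower as well. Of 12 calcium, energy and signalling genes tested, 8 were lower. *slc8a1a*, the sodium-calcium exchanger, fell from 85.8 ± 22.4 CPM (SD, n = 4) to 9.03 ± 3.64 CPM (SD, n = 3) without overlap (-3.24 ± 0.35, adjusted p = 8.82e-04). *ryr2b*, the calcium release channel, fell by 2.69 on the log2 scale (adjusted p = 0.00237) and *casq2*, which stores calcium beside it, by 2.53 (adjusted p = 0.00211). *nppa*, the atrial natriuretic peptide, was 2777 to 6491 CPM in uninjured samples and 1458 to 2009 CPM at 3 d.p.i. (-1.43 ± 0.39, adjusted p = 0.0224). *mb*, myoglobin, did not pass (9007 to 53247 CPM against 8489.8 to 14670.0 CPM, adjusted p = 0.119).

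Of 12 cardiac transcription factors tested, 8 were lower. This list is not confined to muscle, since the study marks epicardial cells with its member *tbx20*. *tbx5* fell from 47.5, 89.5, 197 and 73.9 CPM to 14.2, 7.98 and 11.7 CPM (-3.17 ± 0.56, adjusted p = 0.00408). *gata5* fell by 2.44 (adjusted p = 0.00269) and *mef2aa* by 1.83 (adjusted p = 0.00200), while *gata4* stood at 12.5 to 17.4 CPM against 10.1 to 14.6 CPM (-0.16 ± 0.20, adjusted p = 0.566). With the 15% mitochondrial limit 1 of the 12 calcium and energy genes and 4 of the 12 factors were lower: *slc8a1a* gave -1.94 (adjusted p = 0.136), *ryr2b* -1.11 (adjusted p = 0.314), *casq2* -0.43 (adjusted p = 0.631), *nppa* 0.97 (adjusted p = 0.233), *gata5* -2.32 (adjusted p = 0.0579) and *tbx5* -2.49 (adjusted p = 0.0563). *nppa* also missed the threshold without any one injured sample (adjusted p = 0.0568, 0.0818 and 0.0806 without replicates 1, 2 and 3).

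Energy genes split by isoform. *gapdh*, a glycolytic enzyme, fell from 18632, 23069, 14842 and 6461 CPM to 1545, 657 and 853 CPM (-3.95 ± 0.66, adjusted p = 0.00350). Its paralog *gapdhs* rose from 437, 413, 263 and 242 CPM to 1216, 701 and 1059 CPM (1.55 ± 0.31, adjusted p = 0.00697). *aldoa*, the muscle aldolase, fell from 2142 to 5201 CPM to 287 to 707 CPM (-2.94 ± 0.50, adjusted p = 0.00363, and -1.42 with adjusted p = 0.164 under the 15% limit). *hk2*, an inducible hexokinase, rose from 16.1 to 20.6 CPM to 37.8 to 44.6 CPM (1.19 ± 0.16, adjusted p = 0.00181). Of 21 glycolysis and hypoxia genes tested, 7 rose and 5 fell, and 2 fell under the 15% limit. Among all genes tested 15.1% rose and 15.5% fell.

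Hypoxia-responsive genes were among those that rose. *egln3*, the oxygen sensor that marks hypoxia-inducible factor for destruction, went from 0.824 ± 0.0788 CPM (SD, n = 4) to 6.85 ± 3.76 CPM (SD, n = 3) (3.05 ± 0.37, adjusted p = 0.00117). *adm*, the vasodilator peptide adrenomedullin, went from 0.643, 0.440, 1.64 and 2.62 CPM to 23.8, 14.8 and 26.1 CPM (3.96 ± 0.51, adjusted p = 0.00148). Of 28 respiratory chain and fat oxidation genes tested, 7 fell and 1 rose, beside 15.5% and 15.1% of all genes tested. *cox7a1*, the muscle form of a cytochrome oxidase subunit, fell from 74.5 to 516 CPM to 27.0 to 36.3 CPM (-3.00 ± 0.61, adjusted p = 0.00724), and *cycsb*, a cytochrome c, rose from 55.4 to 112 CPM to 155 to 184 CPM (1.12 ± 0.25, adjusted p = 0.0104). That list was unstable: with the 15% mitochondrial limit 8 of its genes were higher (*cox7a1* -1.58, adjusted p = 0.0791), and 1 to 16 genes fell when single samples were left out, 16 without uninjured replicate 4 and as few as 1 without 3 d.p.i. replicate 2.

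T cell and natural killer cell genes were lower almost throughout. Of 17 tested, 16 fell, and their summed level went from 159 to 669.6 CPM in uninjured samples to 51.8 to 76.6 CPM at 3 d.p.i. *CD3D*, a chain of the T cell receptor complex, stood at 100.2, 206, 22.6 and 10.6 CPM in uninjured samples and between 1.01 and 2.81 CPM at 3 d.p.i. (-5.68 ± 1.11, adjusted p = 0.00593). *lck*, the kinase that starts T cell receptor signalling, stood between 14.2 and 53.7 CPM and fell to 0.582, 0.642 and 2.29 CPM (-4.70 ± 0.62, adjusted p = 0.00154). The groups did not overlap in either gene, uninjured replicates 1 and 2 were the highest for both, and both samples at 14 d.p.i. were above the injured ones (35.2 and 26.1 CPM for *CD3D*, 13.1 and 12.3 CPM for *lck*).

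*zap70*, which relays that signal, fell by 4.53 on the log2 scale (adjusted p = 0.00506). Of the lineage factors, *tbx21* fell by 3.35 (adjusted p = 0.00506) and *eomesb*, of killer and memory cells, by 7.34, from 0.952 to 8.28 CPM to at most 0.0647 CPM (adjusted p = 0.00464). The member that missed the threshold was *tcf7*, a factor of naive T cells (2.81 to 10.3 CPM against 1.94 to 2.73 CPM, -1.47 ± 0.51, adjusted p = 0.0527), which passed without haemoglobin-rich barcodes (-2.45, adjusted p = 0.0125). The rows *nitr17* and *nitr20*, immune-type receptors of teleost lymphocytes, were not on the list and fell from 7.09 to 52.4 CPM to at most 0.296 CPM (-7.48 ± 1.07, adjusted p = 0.00206) and from 9.23 to 34.8 CPM to at most 0.323 CPM (-6.63 ± 0.99, adjusted p = 0.00246). Under the alternatives to the whole sums 12 to 17 of the 17 list genes fell. Without haemoglobin-rich barcodes 16 fell, and within haemoglobin-rich barcodes 2 of the 4 tested fell and 1 rose.

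Granulocyte genes went the other way, with 5 of 9 higher, beside 15.1% of all genes tested. *CSF3R*, the receptor for granulocyte colony-stimulating factor, rose from 16.1, 20.2, 45.2 and 44.1 CPM to 143, 137 and 133 CPM (2.13 ± 0.38, adjusted p = 0.00419). The 3 injured samples were close together and all above the uninjured ones. *mpx*, the myeloperoxidase of neutrophil granules, was uneven: 1.22, 3.37, 15.5 and 5.76 CPM in uninjured samples and 209.7, 28.3 and 20.3 CPM at 3 d.p.i. (3.71 ± 0.95, adjusted p = 0.0180). *alox5ap*, a leukotriene synthesis protein, had the same order of samples, with 59.2 CPM in 3 d.p.i. replicate 1 against 12.9 and 8.72 CPM in the others (3.42 ± 0.84, adjusted p = 0.0153). Without 3 d.p.i. replicate 1 neither passed (*mpx* 1.89, adjusted p = 0.103; *alox5ap* 2.12, adjusted p = 0.0798), and 3 of 9 genes did.

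Macrophage genes rose in part. Of 23 tested, 12 rose and 3 fell, and their summed level went from 3759 to 5873 CPM to 8395 to 10158 CPM. Among all genes tested 15.1% rose and 15.5% fell, so the lower count was near that share. *apoeb*, the lipid carrier made by zebrafish macrophages, went from 56.8, 34.3, 10.7 and 9.09 CPM to 379, 705 and 1486 CPM (4.95 ± 0.74, adjusted p = 0.00246) and stayed at 973 and 1103 CPM at 14 d.p.i. The tetraspanin *cd9b* went from 17.9, 9.39, 6.15 and 5.71 CPM to 351, 421 and 127 CPM (4.94 ± 0.57, adjusted p = 9.96e-04). *ctsl.1*, a lysosomal cathepsin, went from 0.129 to 0.533 CPM to 24.1, 23.2 and 4.73 CPM (5.89 ± 0.68, adjusted p = 9.96e-04). *hmox1a*, which degrades haem, rose by 1.95 (adjusted p = 0.0109), with 3 d.p.i. replicate 1 at 34.0 CPM inside the uninjured range of 19.0 to 37.3 CPM.

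Members of the macrophage list that did not rise included the pore protein *MPEG1*, at 6.38 to 30.4 CPM against 17.0 to 44.9 CPM (0.73 ± 0.58, adjusted p = 0.362). *slc40a1*, the iron exporter ferroportin, fell from 43.1 to 60.1 CPM to 16.9 to 27.5 CPM (-1.12 ± 0.21, adjusted p = 0.00549). Mannose receptor rows split: *mrc1a* fell from 1903, 1486, 2269.8 and 1765 CPM to 343, 154 and 779.5 CPM (-2.13 ± 0.50, adjusted p = 0.0123, and 0.0537 without 3 d.p.i. replicate 1), while both *mrc1b* rows rose (1.31 with adjusted p = 0.00824 and 2.72 with adjusted p = 0.00476). Zebrafish *mrc1a* also marks lymphatic and venous endothelium. With the 15% mitochondrial limit 5 of the 23 genes rose, and with total UMIs as the only scaling 6 did. The leukocyte marker *ptprc* did not pass (77.4 to 113 CPM against 86.6 to 107 CPM, 0.06 ± 0.25, adjusted p = 0.877), and the myeloid factor *spi1b* rose from 15.4 to 35.2 CPM to 61.5 to 85.4 CPM (1.55 ± 0.32, adjusted p = 0.00761, and 0.0553 with total UMIs as the only scaling).

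**Figure D4:**
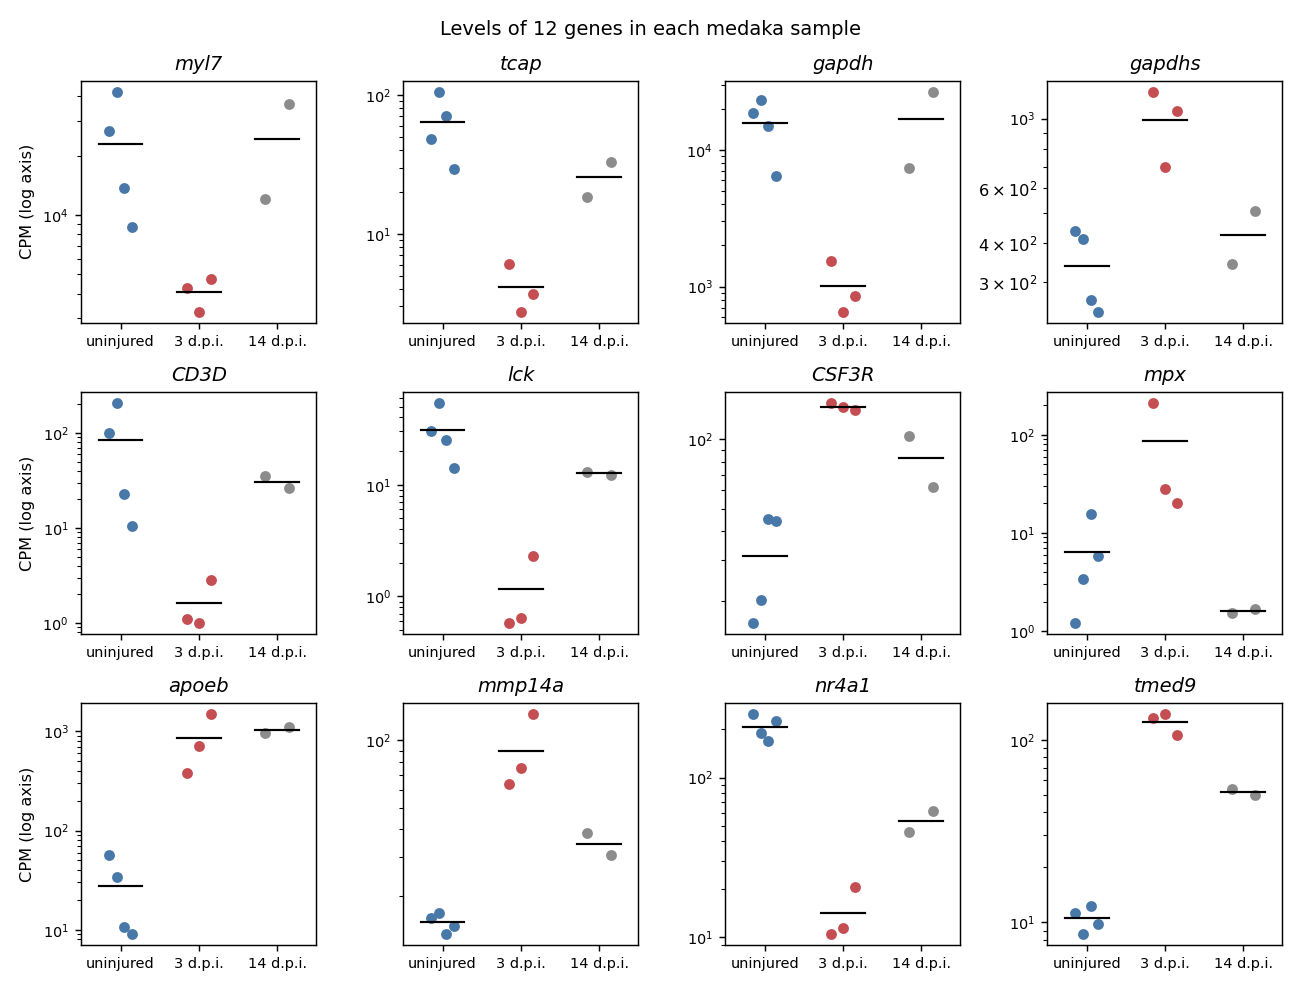
Level of 12 genes (CPM, log axes) in each of the 9 medaka samples by group; points are samples and bars are means. Muscle genes (*myl7*, *tcap*, *gapdh*) and T cell genes (*CD3D*, *lck*) are lowest at 3 d.p.i., *mpx* is uneven at 20.3 to 209.7 CPM, and *apoeb* stays high at 14 d.p.i.

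B cell genes had no common direction: 3 of 11 rose and 1 fell, where 15.1% of all genes tested rose and 15.5% fell. *blnk*, an adaptor of the B cell receptor that myeloid cells also use, rose from 4.81 ± 0.615 CPM (SD, n = 4) to 14.9 ± 2.45 CPM (SD, n = 3) (1.63 ± 0.22, adjusted p = 0.00174), and the plasma cell factor *irf4a* fell from 19.5 to 32.4 CPM to 2.91 to 8.35 CPM (-2.08 ± 0.36, adjusted p = 0.00408). *cd79a*, the signalling chain of the receptor itself, did not pass (23.6 to 76.6 CPM against 4.27 to 24.7 CPM, -1.78 ± 0.71, adjusted p = 0.0837).

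Interferon-stimulated genes, a group the study looked at closely, were mostly not past the threshold. Of the 6 genes tested from the study's list, which it took from earlier work in zebrafish, 1 passed: *xaf1*, a promoter of cell death, fell from 11.9 ± 2.87 CPM (SD, n = 4) to 4.20 ± 0.781 CPM (SD, n = 3) (-1.50 ± 0.29, adjusted p = 0.00614). *isg15*, a ubiquitin-like modifier, stood at 97.9, 14.2, 35.8 and 5.85 CPM in uninjured samples and at 13.3, 54.2 and 38.8 CPM at 3 d.p.i. (-0.12 ± 0.85, adjusted p = 0.927). Its sign turned without uninjured replicate 1 (0.90, adjusted p = 0.366) and without 3 d.p.i. replicate 1 (0.28, adjusted p = 0.853). The antiviral *rsad2* stood at 135, 35.2, 67.8 and 14.3 CPM against 38.9, 163 and 90.5 CPM (0.63 ± 0.68, adjusted p = 0.507), and at -1.44 (adjusted p = 0.114) without haemoglobin-rich barcodes. In both genes the groups overlapped widely. Of 16 other interferon response genes 2 rose and 3 fell, near the 15.1% and 15.5% of all genes tested. The 3 lower calls were lost without 3 d.p.i. replicate 1, without replicate 2 and with each barcode thinned to at most 1000 UMIs. Without haemoglobin-rich barcodes 2 of the study's 6 genes (list median -1.20, against -0.02 in the whole sums) and 5 of the 16 others were lower.

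Of 13 cytokines and chemokines tested, 4 rose and 2 fell, the lower count near the 15.5% of all genes tested. The higher count was 1 without uninjured replicate 1, with total UMIs as the only scaling, with the 15% mitochondrial limit and with thinned barcodes. Of 39 receptors and signalling genes 6 rose and 4 fell, near or below the 15.1% and 15.5% of all genes tested. Without 3 d.p.i. replicate 2, 2 of these receptors and signalling genes rose. *mif*, a cytokine that holds macrophages in place, rose from 14.6 to 37.6 CPM to 123 to 134 CPM (2.45 ± 0.31, adjusted p = 0.00131). The chemokine *ccl25b*, which draws thymocytes, fell from 57.1 to 263 CPM to 4.50 to 43.0 CPM (-3.27 ± 0.86, adjusted p = 0.0194), but not past the threshold without 3 d.p.i. replicate 1 or 2 (adjusted p = 0.0667 and 0.0590). *tnfa* was higher in mean but did not pass (7.52 to 42.4 CPM against 26.8 to 91.8 CPM, 1.37 ± 0.55, adjusted p = 0.0869). Of 15 coagulation, complement and acute-phase genes 4 fell and 1, *apoeb*, rose, where 15.5% of all genes tested fell and 15.1% rose. The lower count was 1 without 3 d.p.i. replicate 1 or 2, and 2 without haemoglobin-rich barcodes. The summed level of the list was higher at 3 d.p.i. (107 to 425 CPM against 488 to 1593 CPM). *c7a*, of the membrane attack complex, fell from 7.36 to 55.3 CPM to at most 1.92 CPM (-5.10 ± 1.22, adjusted p = 0.0135).

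Of 16 genes of iron and haem recycling tested, 6 were higher and 3 lower (4 and 4 without haemoglobin-rich barcodes). Of all genes tested 15.1% were higher and 15.5% lower, so the lower count was near that share. *hmox2a*, the constitutive haem oxygenase, fell from 2.06, 2.86, 1.96 and 1.14 CPM to 0.259, 0.275 and 0.222 CPM (-2.96 ± 0.45, adjusted p = 0.00250), opposite in sign to *hmox1a*.

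Of 35 fibroblast and matrix genes tested, 11 rose and 4 fell (9 and 1 without 3 d.p.i. replicate 2, and 6 and 6 with thinned barcodes). Of all genes tested 15.1% rose and 15.5% fell. *fn1*, fibronectin, went from 14.4, 7.99, 10.2 and 13.9 CPM to 238, 81.2 and 212 CPM (3.93 ± 0.42, adjusted p = 8.34e-04), and its paralog *fn1b* from 42.8, 72.4, 21.6 and 22.5 CPM to 289, 245 and 358 CPM (2.90 ± 0.44, adjusted p = 0.00253). *sparc*, a collagen-binding glycoprotein, rose by 2.71 (adjusted p = 0.00593). *s100a10b*, the partner of annexin 2, rose from 62.9 to 164 CPM to 882 to 1401 CPM (3.19 ± 0.36, adjusted p = 9.14e-04). *spp1*, osteopontin, had no UMI in the 4 uninjured samples and 108 UMIs at 3 d.p.i., at least 68.9-fold higher against a floor of 3 UMIs over the group. *tgfb3*, a transforming growth factor, fell from 51.9 to 130.3 CPM to 21.1 to 33.1 CPM (-1.72 ± 0.31, adjusted p = 0.00460).

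Type I collagen did not pass at this time. *col1a2*, of type I collagen, stood at 191, 169, 62.2 and 69.5 CPM in uninjured samples, at 75.2, 201 and 252 CPM at 3 d.p.i. (0.52 ± 0.53, adjusted p = 0.477) and at 633 and 306 CPM at 14 d.p.i. Of 12 collagens tested 3 rose and 1 fell, beside 15.1% and 15.5% of all genes tested. With thinned barcodes 4 were lower and the 3 higher calls were lost. *col12a1a*, which links fibrils, went from 0.0733 to 0.450 CPM to 6.08, 5.78 and 5.62 CPM (4.83 ± 0.67, adjusted p = 0.00183). *col5a2a* rose by 2.52 (adjusted p = 0.00499) and *col4a1*, of basement membranes, by 1.22 (adjusted p = 0.00443). With each barcode thinned to at most 1000 UMIs *col5a2a* gave 0.61 (adjusted p = 0.355) and *col4a1* -0.15 (adjusted p = 0.645).

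Proteases and their inhibitors rose in 7 of 20 cases and fell in 2, beside 15.1% and 15.5% of all genes tested. *mmp13b*, a collagenase, went from 4.19 ± 3.28 CPM (SD, n = 4) to 84.1 ± 39.2 CPM (SD, n = 3), 19.8-fold higher (adjusted p = 0.00206). *mmp9*, a gelatinase of neutrophils and macrophages, went from 3.02, 5.06, 6.97 and 15.8 CPM to 188, 38.7 and 31.5 CPM (3.47 ± 0.72, adjusted p = 0.00744, and 2.18 without 3 d.p.i. replicate 1). *mmp14a*, which is held in the membrane, rose from 13.6 to 16.9 CPM to 64.1 to 131 CPM (2.56 ± 0.25, adjusted p = 6.94e-04). *adamts1*, which cleaves proteoglycans, fell from 11.2 to 28.1 CPM to 4.59 to 7.31 CPM (-1.67 ± 0.32, adjusted p = 0.00561). In these 4 genes the groups did not overlap.

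Vessel, epicardial and mural lists had no common direction, where 15.1% of all genes tested rose and 15.5% fell. Of 29 endothelial genes 6 rose and 4 fell (3 and 1 without 3 d.p.i. replicate 2, 2 and 1 with total UMIs as the only scaling, and 2 and 14 with thinned barcodes). The adhesion molecule *pecam1* rose from 6.29 to 11.8 CPM to 18.4 to 25.9 CPM (1.46 ± 0.28, adjusted p = 0.00577), and *kdrl* did not pass (113 to 222 CPM against 97.8 to 123 CPM, -0.51 ± 0.25, adjusted p = 0.147). With the 15% mitochondrial limit the endothelial count turned to 2 higher and 9 lower, *kdrl* among them (-0.99, adjusted p = 0.0208). Of 15 epicardial genes 2 rose and 3 fell: *krt8*, a keratin of simple epithelia, rose by 1.18 (adjusted p = 0.00847, and 0.57 with adjusted p = 0.110 under that limit). The epicardial factor *tbx18* fell from 0.462 to 2.35 CPM to at most 0.0918 CPM (-4.52 ± 0.92, adjusted p = 0.00701).

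*tcf21*, the standard epicardial marker, was uneven, with 314, 195, 32.1 and 69.5 CPM in uninjured samples and 1.49, 0.367 and 35.4 CPM at 3 d.p.i. (-3.61 ± 1.35, adjusted p = 0.0693). It passed without 3 d.p.i. replicate 3 (-7.30, adjusted p = 0.00784), which alone overlapped the uninjured range. The Wnt co-activator *rspo1* fell from 2.06 to 3.76 CPM to at most 0.443 CPM (-4.17 ± 0.83, adjusted p = 0.00651). Of 13 mural genes 1 passed upward and 3 fell. *cnn1b*, smooth muscle calponin, had a log2 fold change of 1.69 (adjusted p = 0.00909) and *notch3*, a receptor of pericytes, one of -1.80 (adjusted p = 0.00949).

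Cell cycle genes rose as a body. Of 68 tested, 50 were higher, with a list median of 1.35 against -0.04 over all genes, and their summed level went from 584 to 968 CPM to 1143 to 1478 CPM. *hmgb2a*, a chromatin protein of dividing cells, went from 12.7, 10.1, 12.5 and 11.7 CPM to 40.6, 38.6 and 28.7 CPM (1.61 ± 0.17, adjusted p = 8.20e-04). The mitotic kinase *PLK1* went from 6.49 ± 2.47 CPM (SD, n = 4) to 29.9 ± 7.79 CPM (SD, n = 3), 4.60-fold higher (adjusted p = 0.00246), and *aurkb*, of chromosome segregation, rose by 2.04 (adjusted p = 0.00154). *mki67*, the standard proliferation marker, rose by 1.65 (adjusted p = 0.00535) and *RRM2*, which makes deoxynucleotides, by 1.92 (adjusted p = 0.00362). The groups did not overlap in any of these 5 genes.

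Without haemoglobin-rich barcodes 53 of 68 cell cycle genes were higher, and within haemoglobin-rich barcodes the median of the 41 tested was -2.18. Fewer were called with 3 d.p.i. replicate 1 left out (26), with replicate 3 left out (28) and with the 15% mitochondrial limit (30). With barcodes thinned to at most 1000 UMIs 6 were called, *mki67* at 0.74 (adjusted p = 0.208), *aurkb* at 0.81 (adjusted p = 0.191) and *PLK1* at 1.04 (adjusted p = 0.0748). Thinning also gives haemoglobin-rich barcodes more weight in the sums, as they were shallower. Their median depth at 3 d.p.i. was 1276 to 1922 non-mitochondrial UMIs, against 4884 to 5853.5 in the others. The part of this shift in the lost calls was not tested.

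Genes of protein folding and breakdown rose. Of 28 endoplasmic reticulum chaperone and translocon genes 17 were higher. *ssr4*, of the translocon, went from 2.89, 1.76, 2.77 and 2.57 CPM to 25.3, 24.4 and 14.0 CPM (3.08 ± 0.29, adjusted p = 6.66e-04), *sdf2l1*, a co-chaperone, rose by 1.68 (adjusted p = 7.51e-04) and *manf*, a secreted stress factor, by 1.42 (adjusted p = 0.00185). *hspa5*, the main chaperone of the compartment, did not pass (22.4 to 80.8 CPM against 48.2 to 90.5 CPM, 0.69 ± 0.40, adjusted p = 0.223), and passed without uninjured replicate 4, its highest uninjured sample (1.14, adjusted p = 0.0252). Without 3 d.p.i. replicate 3, 10 genes of the list rose, and 9 did with total UMIs as the only scaling and with thinned barcodes.

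Of 41 proteasome genes 25 were higher and 1, the immunoproteasome subunit *psmb8*, was lower. *psmb5*, of the catalytic core, went from 7.78, 6.01, 8.03 and 5.14 CPM to 38.0, 45.9 and 25.9 CPM (2.44 ± 0.24, adjusted p = 6.67e-04) and *psmb1* of the same core from 28.6 to 49.0 CPM to 113 to 139 CPM (1.63 ± 0.21, adjusted p = 0.00152). *psmb5* also rose within haemoglobin-rich barcodes (2.04, adjusted p = 0.00422). Leaving out single samples left 19 to 34 higher.

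Of 42 lysosomal genes 21 were higher and 1 lower, and the list shares cathepsins such as *ctsl.1* with the macrophage list. *ctsk*, a collagen-degrading cathepsin, went from 432, 207, 284 and 288 CPM to 655, 939 and 1540.2 CPM (1.79 ± 0.34, adjusted p = 0.00571), and *ATP6V1A*, of the proton pump, rose by 1.29 (adjusted p = 0.00250). With 3 d.p.i. replicate 1 left out 13 rose, with replicate 3 left out 12, and with total UMIs as the only scaling 8. Of 44 actin and migration genes 23 rose and 3 fell, and 12 rose with thinned barcodes. *anxa2a*, annexin 2, went from 78.4, 64.5, 27.4 and 46.7 CPM to 457, 596 and 655 CPM (3.39 ± 0.37, adjusted p = 8.67e-04). *ACTR3*, of the Arp2/3 complex that branches actin, went from 65.2 to 75.9 CPM to 242 to 333 CPM (2.08 ± 0.21, adjusted p = 6.67e-04), and *WDR1*, which aids actin turnover, from 58.4 to 64.6 CPM to 171 to 180.0 CPM (1.52 ± 0.18, adjusted p = 0.00103).

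Of 42 immediate-early and stress genes 14 were lower and 5 higher. Among all genes tested 15.5% were lower and 15.1% higher, so the higher count was near or below that share. *nr4a1*, an orphan nuclear receptor induced within minutes of many stimuli, fell from 249, 189.7, 169 and 226 CPM to 10.5, 11.4 and 20.5 CPM (-3.88 ± 0.32, adjusted p = 5.11e-04), with 45.3 and 61.8 CPM at 14 d.p.i. *fosb* fell from 2521, 2214, 301 and 1423 CPM to 97.0, 216 and 219 CPM (-3.19 ± 0.68, adjusted p = 0.00852). *egr1* fell by 1.69 (adjusted p = 0.00788), *klf4* by 2.29 (adjusted p = 0.00937) and the phosphatase gene *dusp2* by 2.42 (adjusted p = 0.00345), while *dusp1* did not pass (-0.35 ± 0.24, adjusted p = 0.292). *prdx1*, a peroxide scavenger, rose from 72.6 to 189.6 CPM to 318 to 562 CPM (1.97 ± 0.35, adjusted p = 0.00452). Tissue digestion is known to induce immediate-early genes, and its part in these levels was not tested. Without 3 d.p.i. replicate 1, 9 genes of the list were lower, and without replicate 3, 8.

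Growth signals leaned down, with 28 of 76 lower and 10 higher. Among all genes tested 15.5% were lower and 15.1% higher, so the higher count was near that share. Signals that rose included *vegfc*, the lymphatic growth factor, from 0.427 to 0.643 CPM to 4.91, 4.31 and 2.29 CPM (2.91 ± 0.48, adjusted p = 0.00318) and *hbegfa*, a ligand of the epidermal growth factor receptor, from 71.4, 80.2, 98.7 and 131 CPM to 248, 417 and 286 CPM (1.73 ± 0.27, adjusted p = 0.00275). The leptin row *lep-b* had no UMI in uninjured samples and 249 UMIs at 3 d.p.i., at least 155-fold higher against the same floor.

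Signals that fell included the Notch ligand *jag1b* (-1.60 ± 0.26, adjusted p = 0.00322), *id2a*, a target of bone morphogenetic protein signalling (1041 to 1338 CPM against 381 to 497 CPM, -1.46 ± 0.23, adjusted p = 0.00272), and *cyp26b1*, which degrades retinoic acid, from 63.9, 103, 73.3 and 22.6 CPM to 3.94, 9.08 and 10.7 CPM (-3.06 ± 0.60, adjusted p = 0.00627). *igfbp5b*, which binds insulin-like growth factors, and *ptn*, the growth factor pleiotrophin, shared the peak of *myh6* in uninjured replicate 3 (197 against 17.7 to 31.4 CPM, and 128 against 8.52 to 29.6 CPM). They fell by 5.20 (adjusted p = 0.00577) and 5.63 (adjusted p = 0.00732), and without that replicate by 3.67 (adjusted p = 0.00169) and 4.36 (adjusted p = 0.00631). Without 3 d.p.i. replicate 1 or 2, 17 and 14 genes of the list fell.

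Of the pro-regenerative signals that the study examined, 7 were found by symbol and 5 were tested. Of these 1 rose and 2 fell (0 fell without 3 d.p.i. replicate 2), where 15.1% of all genes tested rose and 15.5% fell. The member that rose was *cntfa*, a cytokine of the interleukin 6 family, from 2.42 to 6.75 CPM to 13.5 to 22.3 CPM (1.87 ± 0.33, adjusted p = 0.00430). The chemokine row *a-sdf1a* fell from a mean of 8.05 CPM to 1.59 ± 1.32 CPM (SD, n = 3) (-2.31 ± 0.57, adjusted p = 0.0150), before 69.5 and 37.5 CPM at 14 d.p.i. It missed the threshold without 3 d.p.i. replicate 1 or 2 (adjusted p = 0.0620 and 0.0556). Of the 7 cardioprotective genes tested 1 passed, downward, which is near the 15.5% of all genes tested that fell. It was *tmod1*, tropomodulin (-1.56 ± 0.29, adjusted p = 0.00500, and -0.95 with adjusted p = 0.120 under the 15% mitochondrial limit). The study chose the cardioprotective genes among those higher after injury in heart muscle cells of both its zebrafish and neonatal mice. It described them as not induced in its medaka or in older mice, so that list is not independent evidence.

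The higher genes with the smallest adjusted p serve secretion, transport, splicing and chromatin. *tmed9*, a cargo receptor between endoplasmic reticulum and Golgi, went from 11.2, 8.65, 12.3 and 9.85 CPM to 132, 138 and 106 CPM (3.58 ± 0.19, adjusted p = 1.25e-04, the smallest of all genes). *dynll1*, a dynein light chain, went from 18.7, 18.9, 27.1 and 24.0 CPM to 143, 169 and 129.9 CPM (2.73 ± 0.20, adjusted p = 4.45e-04). *snrpd1*, of the spliceosome core, rose by 2.18 (adjusted p = 4.08e-04), *dpy30*, of histone methyltransferase complexes, by 3.09 (adjusted p = 4.45e-04) and *dennd10*, a DENN domain protein, by 2.34 (adjusted p = 4.75e-04). These 5 were picked by small adjusted p, a choice that itself favours tight uninjured samples far from the injured ones. At 14 d.p.i. they were still above the uninjured range, *tmed9* at 53.6 and 50.0 CPM, *dynll1* at 116 and 115 CPM and *snrpd1* at 34.4 and 32.3 CPM.

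The lower genes with the smallest adjusted p were *nr4a1*, already given, *smyd2b*, a protein methyltransferase (-3.11 ± 0.28, adjusted p = 5.76e-04), *casz1*, a factor of heart development (184 to 257 CPM against 23.3 to 34.1 CPM, -2.87 ± 0.28, adjusted p = 6.66e-04), *rai1* (-3.40 ± 0.35, adjusted p = 7.84e-04) and *synm*, the muscle intermediate filament synemin (109 to 184 CPM against 15.4 to 27.7 CPM, -2.65 ± 0.28, adjusted p = 8.20e-04). With the 15% mitochondrial limit *smyd2b* gave -1.88 (adjusted p = 0.0551) and *casz1* -1.69 (adjusted p = 0.0884).

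The largest increases among genes of at least 20 CPM were in *am5*, from 0.0952 to 0.284 CPM to 31.1, 50.8 and 63.0 CPM (7.96 ± 0.76, adjusted p = 6.66e-04) and in the row *si:ch211-153b23.5*, from 1.74 to 6.19 CPM to 259, 927 and 174 CPM (6.72 ± 0.88, adjusted p = 0.00154), beside the scarce *gb* rows. *rbp4*, the retinol carrier, decreased from 128, 146, 29.7 and 25.7 CPM to 0, 0 and 2.22 CPM (-6.76, adjusted p = 0.00570).

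Haemoglobin-rich barcodes were also compared with each other. Of 6038 genes tested in their sums, 335 were higher and 214 lower at 3 d.p.i. (5.55% and 3.54%), from median depths of 1271 to 1922 non-mitochondrial UMIs per barcode. These sums were uneven, with 1618, 398, 747 and 129 barcodes in uninjured replicates 1 to 4 and 1534, 2610 and 2123 at 3 d.p.i. *tmed9* (2.73, adjusted p = 0.00320), *dynll1* (2.92, adjusted p = 0.00220), *snrpd1* (1.56, adjusted p = 0.0391) and *dpy30* (1.96, adjusted p = 0.0373) rose there as in the whole sums. In uninjured replicate 4 *snrpd1* and *dpy30* stood at 0 CPM there and *tmed9* at 2.16 CPM. Like *gp9* above, a pair of the genes with the largest increases stood higher in these barcodes than in the others. *chp2*, a calcineurin-like partner of sodium-proton exchangers, went from 2.44, 1.32, 2.38 and 1.29 CPM to 25.8, 92.9 and 37.7 CPM in the whole sums (4.79 ± 0.51, adjusted p = 8.34e-04) and gave 2.48 (adjusted p = 0.0684) without haemoglobin-rich barcodes. *anapc16*, of the anaphase-promoting complex, went from 0.147 to 0.355 CPM to 42.4, 16.8 and 4.29 CPM (6.39 ± 0.77, adjusted p = 0.00114), gave 7.86 (adjusted p = 0.0192) within haemoglobin-rich barcodes and 2.94 (adjusted p = 0.0146) without them.

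Zebrafish gave the same contrast with 4 uninjured samples and 3 at 3 d.p.i. Haemoglobin-rich barcodes were 12.8%, 7.64%, 0.0692% and 0.181% of kept barcodes in uninjured zebrafish and 13.6%, 47.1% and 67.7% at 3 d.p.i. Of 10909 genes with 1 row of the same symbol in both species, the response differed in 846 (7.76%), with 398 more positive in medaka (3.65%) and 448 more negative (4.11%) by the interaction of species and time in edgeR. Equal symbols were taken as the same gene without a check of orthology. Uninjured zebrafish replicates 1 and 2 were processed with another release and gene list, and without them 777 and 1020 genes differed. Without 3 d.p.i. replicates 1, 2 or 3 of zebrafish the counts were 194 and 277, 158 and 239, and 185 and 234; without 3 d.p.i. replicate 1 or 2 of medaka they were 166 and 195, and 135 and 133; without medaka uninjured replicate 2 they were 242 and 292.

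T cell genes were among those that fell further in medaka. Of 16 tested, 4 were more negative, with list medians of -2.73 in medaka and -0.47 in zebrafish. For *lck* the responses were -4.75 and -0.44, a difference of -4.31 ± 0.90 (adjusted p = 0.0147), but zebrafish levels were low before injury (0.292 to 1.61 CPM of the shared genes, against 0.446 to 0.813 CPM after). Of 60 cell cycle genes 9 were more negative and 1 more positive in medaka, with medians of 1.27 and 2.18. Of 13 collagens 3 were more negative in medaka, with medians of -0.10 and 1.94. Without uninjured zebrafish replicates 1 and 2 the more negative counts were 19 for the cell cycle and 6 for collagens. Of 7 granulocyte genes 2 were more positive in medaka, with medians of 2.02 and 0.18.

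The smallest adjusted p on the positive side were those of *chp2* (4.71 in medaka and -0.03 in zebrafish, difference 4.74 ± 0.55, adjusted p = 0.00354), *ovca2*, a hydrolase (difference 3.75, adjusted p = 0.00354), *timm29*, of mitochondrial import (3.01, adjusted p = 0.00354), the lysosomal phosphatase *acp2* (2.60, adjusted p = 0.00369) and *c1qbp*, of the mitochondrial matrix (1.27 and -1.21, difference 2.48, adjusted p = 0.00369). On the negative side they were those of the glucose transporter *slc2a12* (-3.17 and 0.41, difference -3.58 ± 0.43, adjusted p = 0.00354), *hpse*, heparanase (-0.81 and 3.26, difference -4.07 ± 0.50, adjusted p = 0.00354), *galk1*, galactokinase (difference -2.61, adjusted p = 0.00354), *ogal* (difference -3.23, adjusted p = 0.00369) and the adaptor *shdb* (-3.37 and 2.31, difference -5.69, adjusted p = 0.00369). Without haemoglobin-rich barcodes the difference for *chp2* was 2.28 (adjusted p = 0.108).

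Among genes named above, the response was more positive in medaka for *anapc16* (difference 6.55 ± 0.98, adjusted p = 0.00497), *dpy30* (2.25 ± 0.35, adjusted p = 0.00566), *pecam1* (1.87 ± 0.33, adjusted p = 0.00806) and *hmgb2a* (1.62 ± 0.33, adjusted p = 0.0132). It was more negative for *smyd1b* (-2.33 in medaka and 0.50 in zebrafish, difference -2.83 ± 0.57, adjusted p = 0.0132), *adamts1* (-1.77 and 1.13, difference -2.90 ± 0.57, adjusted p = 0.0125) and *hmox2a* (-3.01 and -0.62, difference -2.39 ± 0.47, adjusted p = 0.0128). The fall of *smyd1b* in medaka missed the threshold with the 15% mitochondrial limit, as given above, and that limit was not tried between species. Mitochondrial UMIs were 2.00 to 17.1% of kept UMIs in uninjured zebrafish and 5.26 to 10.4% at 3 d.p.i.

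**Figure D5:**
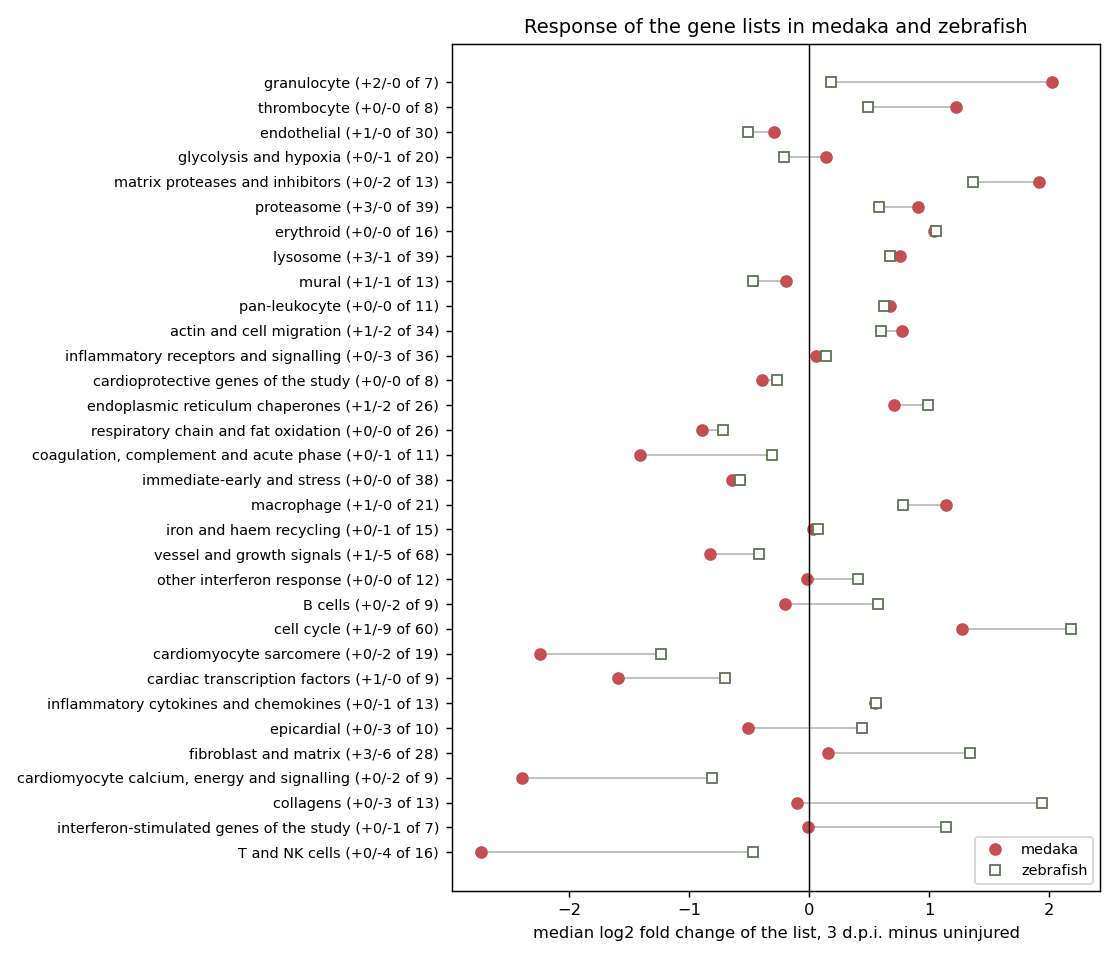
Median log2 fold change of each gene list at 3 d.p.i. against uninjured in medaka (filled circles) and zebrafish (open squares), for lists with at least 6 shared genes; numbers give genes with a more positive (+) or more negative (-) response in medaka of those tested. T and NK cell genes lie at -2.73 in medaka and -0.47 in zebrafish, and collagens at -0.10 and 1.94.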

How the data were processed

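The authors deposited, per 10x sample, a matrix of UMI counts for filtered barcodes; per the file headers the medaka counts came from Cell Ranger 5.0.0, and the study's methods state default settings with the medaka build ASM223467v1. The deposited counts are whole numbers and were not normalized. Barcodes with at least 200 genes and at most 40% mitochondrial UMIs were kept; the medaka gene list of 24329 rows has 1 mitochondrial row, which was left out of sums. No doublet caller was run. Haemoglobin genes were found by symbol, and 2 symbols (*gb*, *Gb-alpha1*) were added after values were seen. Sums per sample were fitted with edgeR 4.0.16 (R 4.3.3; TMM, filterByExpr, robust quasi-likelihood test, two-sided) over all 9 medaka samples without a replicate block, and p-values were adjusted over all genes tested; SE is the log2 fold change divided by the root of the F statistic. The species comparison used 14 samples and an interaction term. Shares were compared by an exact permutation test. Alternatives were DESeq2 1.42.0, other scalings, filters, sample sets and barcode limits. Thinning barcodes also changes the mix of cells in the sums, since haemoglobin-rich barcodes were shallower than the others.

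The 35 gene lists and the tests were chosen with earlier results of these data known. Some genes stand in several lists, such as *s100a10b* (granulocyte, fibroblast and actin) and *mmp9* (granulocyte and protease), so the counts of different lists are not independent. Genes named in the text were the 10 in each direction with the largest log2 fold change among called genes with a symbol, no overlap between groups and at least 20 CPM in the higher group, the 5 in each direction with the smallest adjusted p, list members (with preference for called members of small adjusted p and for the most abundant) and, between species, the 5 in each direction with the smallest adjusted p; 1 gene that the rule picked and 1 row without a gene name are not reported here.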

Additional observations from a re-analysis of the deposited data

Results flagged for a closer look

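Of 141 sets of 4 uninjured values examined, 10 held a sample far from the other 3, where chance alone gives about 5% of sets. Uninjured replicate 3 was far above the others for *myh6* (4628 CPM), *kcnj5* (384 CPM) and *igfbp5b* (197 CPM). Uninjured replicate 4 was above the others for both scarce *gb* rows (3.05 and 19.7 CPM) and below them for *snrpd1* (9.80 CPM) and *a-sdf1a* (3.43 CPM). Uninjured replicate 1 was above the others for *gp9* (8.94 CPM) and below them for *egln3* (0.707 CPM), and replicate 2 was apart from the others for *tmod1* (13.1 CPM).

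The response at 3 d.p.i. differed between medaka and zebrafish, by the interaction term in edgeR, for 18 genes named in the text. The log2 difference, medaka minus zebrafish, was positive for *chp2* (4.74), *ovca2* (3.75), *timm29* (3.01), *acp2* (2.60), *c1qbp* (2.48), *anapc16* (6.55), *dpy30* (2.25), *pecam1* (1.87) and *hmgb2a* (1.62). It was negative for *slc2a12* (-3.58), *hpse* (-4.07), *galk1* (-2.61), *ogal* (-3.23), *shdb* (-5.69), *smyd1b* (-2.83), *lck* (-4.31), *adamts1* (-2.90) and *hmox2a* (-2.39).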

How the results depend on the processing

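The count of higher genes (2342) was 1348 with total UMIs as the only scaling, 1527 with barcodes thinned to at most 1000 UMIs and 335 within haemoglobin-rich barcodes, and 1505 to 2297 when single samples were left out; the count of lower genes (2401) was 214 within haemoglobin-rich barcodes and 1249 to 2392 when single samples were left out. The species differences (398 more positive, 448 more negative) were 855 and 749 with DESeq2, 777 and 1020 without zebrafish uninjured replicates 1 and 2, and 135 to 477 and 133 to 468 when single samples were left out. Deviations of same-numbered medaka samples correlated at -0.15, -0.09 and -0.09, so the numbers were not taken as pairs; with the replicate number as a block 1761 genes were higher and 1843 lower, and 13 and 23 differed between species. The gain in haemoglobin-rich barcodes was 44.6 to 49.3 points under other definitions and 42.4 to 55.9 points when single samples were left out. Over 138 named genes, 2497 of 2609 values kept their direction and side of the threshold, 57 lost the call, 37 gained one and 18 changed sign. Changes of sign without haemoglobin-rich barcodes were -1.48 for *Gb-alpha1* and -1.44 for *rsad2*, which also gave -0.56 with at least 500 genes per barcode. With the 15% mitochondrial limit they were 0.66 for *sptb*, 0.02 for *vmhc*, 0.97 for *nppa*, -0.27 for *ptprc* and -0.18 for *col1a2*. With thinned barcodes they were 0.61 for *sptb*, -0.25 for *ptprc*, 1.22 for *isg15*, -0.15 for *col4a1* and -0.91 for *col1a2*. *ptprc* gave -0.03 with the block and -0.03 to 0.14 when single samples were left out, and *isg15* gave -0.55 to 0.90, each changing sign among them. DESeq2 gave no adjusted p for *kcnj5*, which was left out of these counts. The fits within haemoglobin-rich barcodes and without a mitochondrial limit were chosen after seeing the data. The cause of these changes was not tested. With 3 injured samples, small shares and low genes rest on few UMIs, and genes at or near 0 in a group have uncertain fold changes.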
